A study of Mus musculus with 21 samples.

Results

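DNA replication genes encode the proteins that mark origins, load and start the replicative helicase, copy both strands and supply deoxynucleotides. The group studied here held 49 of the 23412 gene symbols in the count files, and all 49 passed the filter on low counts. Its members were 9 genes of origin recognition and licensing, 7 of the MCM helicase family, 6 of helicase activation, 9 of the polymerases and primase, 9 of the sliding clamp, clamp loader and the single-strand binding complex RPA, 5 of Okazaki fragment processing and fork protection, and 4 of nucleotide supply. Related factors were kept in separate lists.

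The study addressed how PDS5 and STAG proteins, which bind the cohesin ring, act in mouse embryonic stem cells. RNA-seq libraries came from v6.5 cells, a male line, 48 hours after transfection with siRNA at 50 nM. Wild-type (WT) cells received siGLO, the transfection control, or siPds5b. Pds5a-KO cells, which lack PDS5A, received siGLO, siPds5b, siStag1 or siStag2, and Pds5b-KO cells, which lack PDS5B, received siGLO. Each of the 7 conditions had 3 libraries, and each knockout was a single CRISPR clone, so that a difference of the clone and an effect of the lost gene cannot be told apart. Most replication genes are transcribed late in G1 and in S phase under E2F transcription factors, and embryonic stem cells spend much of their cycle in S phase. Cohesin is loaded around the time origins are licensed and holds sister chromatids together once they are copied.

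Values are normalized counts, that is, reads per gene scaled so that every library has the same effective size of 19816922 reads, and are listed in the order of replicates 1, 2 and 3. Fold changes are on a log2 scale, where 0 is no difference and negative values are lower in the condition named first, with a standard error (SE). A gene is said to rise, fall or be called where its p-value, adjusted over the 14963 genes tested, was under 0.01. Total counts ran from 17311090 to 23989198 per library with a median of 19628146. The p-values measure the spread between these libraries, which a legend of the study calls biological replicates without saying whether they were separate cultures. Since the RNA came from bulk cells, fewer cells in a phase or of a type and less RNA per cell cannot be told apart.

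The targeted genes were read first as a check of the labels. Pds5b, the gene of PDS5B, had 2354, 2019 and 2285 normalized counts in WT siGLO, 687, 839 and 802 in WT siPds5b, 2613, 2074 and 2412 in Pds5a-KO siGLO and 278, 312 and 238 in Pds5b-KO siGLO. It had 1073, 901 and 736 in Pds5a-KO siPds5b, with a log2 fold change of -3.01 in Pds5b-KO siGLO and -1.52 in WT siPds5b against WT siGLO, and of -1.39 in Pds5a-KO siPds5b against Pds5a-KO siGLO. Transcripts of Pds5a, the gene of PDS5A, were not called in Pds5a-KO siGLO, with 4786, 3788 and 4239 against 5256, 4719.9 and 5199.7 in WT siGLO, so the count of this gene does not show the knockout. Stag1 and Stag2, which encode alternative cohesin subunits, fell in the cells given their siRNA, with log2 fold changes of -2.08 and -1.90 against Pds5a-KO siGLO. The 10 embryonic stem cell markers summed to 156954, 150953 and 144937 in WT siGLO, with Tdgf1 the most abundant and no marker at 0, where the most abundant marker of a list is the one with the highest normalized count, not divided by length.

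In WT siGLO the members ranged widely in level per kilobase of exon (all exons of a gene joined). Pcna, the sliding clamp, was highest at 4486 normalized counts per kilobase and Orc4, an origin recognition subunit, lowest at 160.0. Mcm5 and Mcm3, subunits of the helicase ring, followed Pcna at 3387 and 3067, and Rrm2, the small subunit of ribonucleotide reductase, had 2868. No member had a raw count under 250 in any library. With the length of the principal transcript instead, given for 41 members, Pcna was again highest at 7092 and Gins3, a subunit of the helicase activator GINS, lowest at 199.1.

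Summed over the 49 members, the libraries of WT siGLO held 199939, 198203 and 199066 normalized counts and those of WT siPds5b 193243, 194665 and 193994. The knockouts with siGLO held less, 177585, 170637 and 163108 in Pds5a-KO and 185035, 172976 and 178232 in Pds5b-KO. Among Pds5a-KO cells given a further siRNA, the sums were 164703, 154219 and 154223 with siPds5b, 170093, 162340.2 and 162828 with siStag1 and 153511, 164794 and 164161 with siStag2. All 18 other libraries thus held less than the lowest WT siGLO library, and the lowest sum of all was that of replicate 1 of Pds5a-KO siStag2. The members took between 0.999 and 1.00% of all reads in WT siGLO and between 0.792 and 0.842% in Pds5a-KO siPds5b and Pds5a-KO siStag2.

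Of the 49 members, 14 fell and none rose in Pds5a-KO siGLO against WT siGLO, where 17.8% of all tested genes were called, 8.12% lower and 9.63% higher. This count was 9 without replicate 1 of WT siGLO and 8 without replicate 2 or without replicate 3 of Pds5a-KO siGLO. In Pds5b-KO siGLO against WT siGLO, 14 fell and 2 rose, beside 18.2% of all tested genes called, 8.57% lower and 9.64% higher. Against the same control, 28 fell in Pds5a-KO siPds5b (32.0% of all genes called, 14.6% lower and 17.4% higher), 26 in Pds5a-KO siStag1 (20.0%, 9.37% lower and 10.6% higher) and 29 in Pds5a-KO siStag2 (30.1%, 13.9% lower and 16.2% higher), and no member rose. The count in Pds5a-KO siStag1 was 17 without replicate 1 of WT siGLO, 15 without replicate 2 and 17 without replicate 3 of Pds5a-KO siStag1. In WT siPds5b no member was called by edgeR, where 0.00668% of all genes were, all of them lower, 2 members had an unadjusted p under 0.05 and DESeq2 called 0. The share of all genes at this unadjusted p is not given, so the count of 2 has no background beside it. These 6 comparisons share the WT siGLO libraries, so their counts are not independent of each other.

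The median log2 fold change of the members was -0.19 in Pds5a-KO siGLO, -0.18 in Pds5b-KO siGLO, -0.01 in WT siPds5b, -0.28 in Pds5a-KO siPds5b, -0.26 in Pds5a-KO siStag1 and -0.31 in Pds5a-KO siStag2, while that of all tested genes was 0.00 in each of these. Every library was below every WT siGLO library for 34 members in Pds5a-KO siGLO, 29 in Pds5b-KO siGLO and 6 in WT siPds5b, with no overlap on the low side for 20.4, 22.5 and 5.71% of all genes. Every library was above WT siGLO for 3, 2 and 2 members in these conditions, beside 20.4, 22.8 and 5.47% of all genes. In Pds5a-KO cells, every library lay below every WT siGLO library for 40 members with siPds5b, 34 with siStag1 and 38 with siStag2, beside 26.7, 22.8 and 25.3% of all genes. In each of these, 2 members lay above, beside 27.6, 23.4 and 27.1%. Whether the lower level of the group follows from the share of cells in S phase, from their state or from each gene's own regulation was not tested with these libraries. By flow cytometry, the paper found no significant shift in cell cycle phases for Pds5a-KO siPds5b against WT siGLO. The paper also reports slower proliferation of the Pds5a-KO siPds5b cells. Neither assay was made on these RNA libraries, so neither tests the share of cells in S phase in them.

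**Figure D1:**
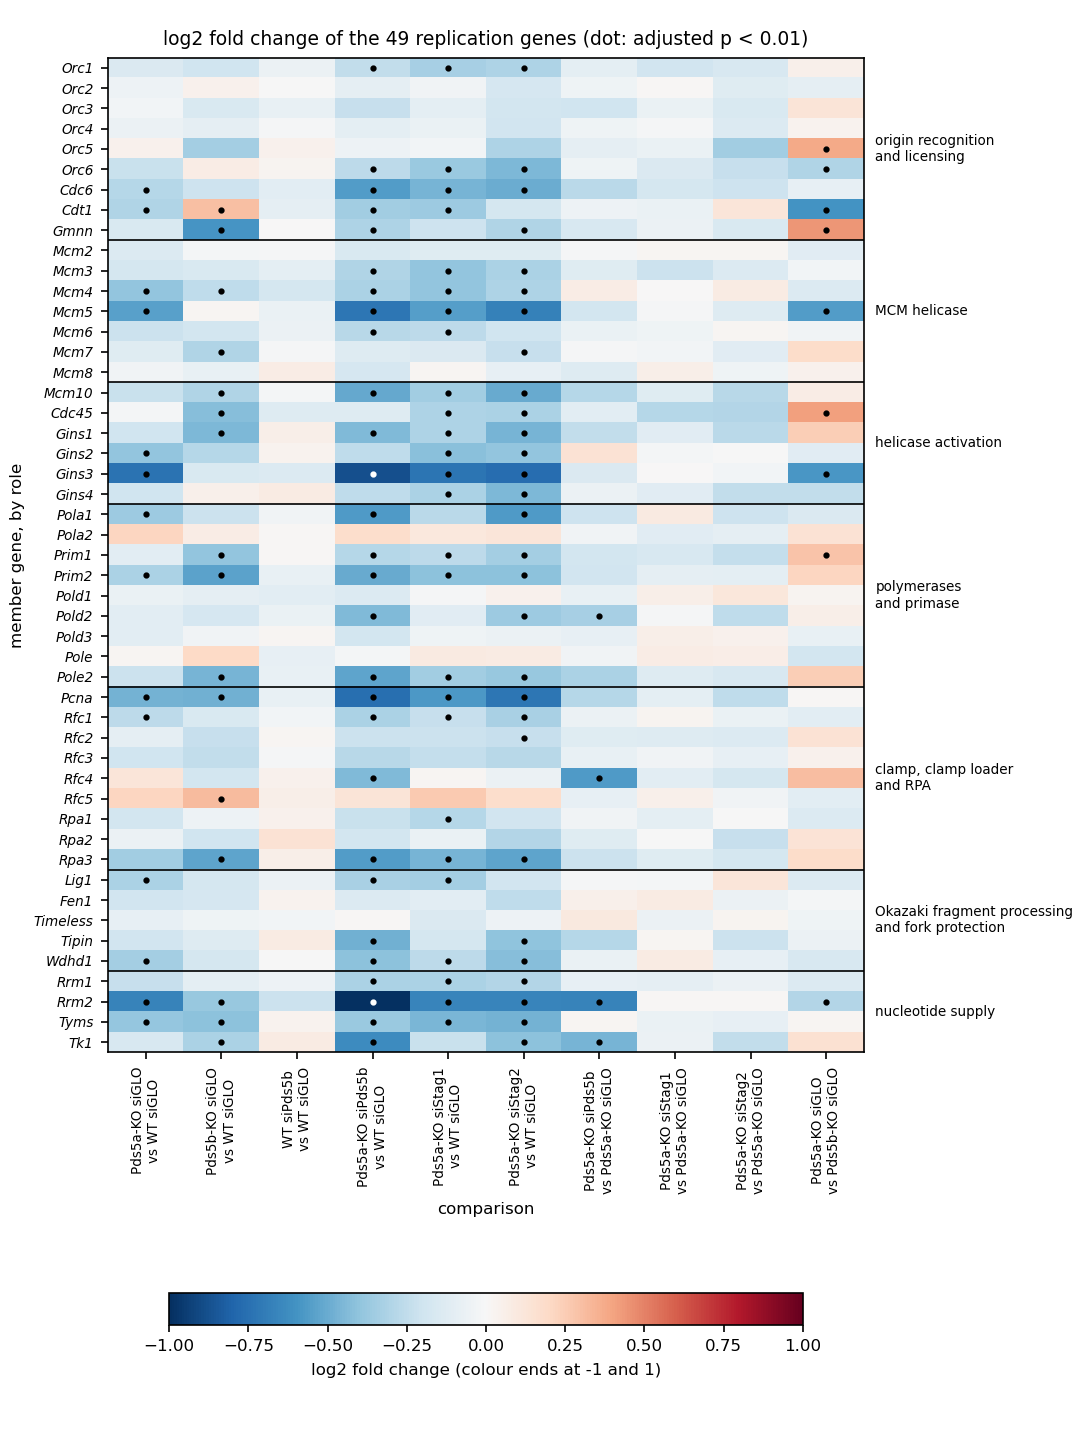
Log2 fold changes of the 49 members in 10 comparisons, ordered by role. A dot marks a gene called at an adjusted p under 0.01.

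Across the 6 comparisons against WT siGLO, 14 members were never called without a block: Orc2, Orc3, Orc4 and Orc5, Mcm2, Mcm8, Pola2, Pold1, Pold3, Pole, Rfc3, Rpa2, Fen1 and Timeless. With the replicate number as a block, Pola2 was called higher in Pds5a-KO siGLO (0.21, adjusted p 0.00915). In Pds5a-KO cells, Rfc3 was then called lower with siPds5b (-0.28, adjusted p 0.00984), and Fen1 and Rpa2 with siStag2 (-0.25 and -0.29, adjusted p 0.00465 and 0.00842). Mcm4, Prim2, Pcna, Rrm2 and Tyms, with roles in the helicase, the primase, the clamp and nucleotide supply, fell in all comparisons but that of WT siPds5b. Cdt1, the licensing factor that brings MCM to origins, was the only member called in both directions. Rfc5, a clamp loader subunit, was the only member that rose and never fell in the fit without a block.

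Among licensing genes, Cdc6, the ATPase that loads MCM with ORC, had 1961, 1861 and 2141 normalized counts in WT siGLO, 1785, 1827 and 1918 in WT siPds5b, 1651, 1612 and 1625 in Pds5a-KO siGLO and 1688, 1584 and 1895 in Pds5b-KO siGLO. In Pds5a-KO cells it had 1459.7, 1310.2 and 1284 with siPds5b, 1486, 1379 and 1454 with siStag1 and 1316, 1365 and 1550.2 with siStag2. All 12 Pds5a-KO libraries lay below all WT siGLO libraries, whereas Pds5b-KO overlapped them. Cdc6 fell by log2 0.29 in Pds5a-KO siGLO (SE 0.08, adjusted p 0.00686) and by 0.56, 0.47 and 0.50 with siPds5b, siStag1 and siStag2, and was not called in Pds5b-KO siGLO (-0.21, adjusted p 0.0442).

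Cdt1 moved in opposite directions in the knockouts. Its counts were 3423, 3418 and 3464 in WT siGLO, 3347, 3106 and 3231 in WT siPds5b, 2726, 2945 and 2710.3 in Pds5a-KO siGLO and 4492, 4322 and 3901 in Pds5b-KO siGLO. With siPds5b, siStag1 and siStag2 in Pds5a-KO cells they were 2679.6, 2695 and 2719.9, then 2570.5, 2669 and 2773, then 3116, 2995 and 3019. The Pds5b-KO libraries were the highest of all 21, and the ranges of no knockout condition overlapped WT siGLO. Cdt1 rose by log2 0.30 in Pds5b-KO siGLO (SE 0.06, adjusted p 0.000582), fell by 0.30 in Pds5a-KO siGLO (SE 0.06, adjusted p 0.000711), and differed between the knockouts when they were compared directly (-0.60, adjusted p 9.19e-08). Geminin (Gmnn), which blocks CDT1 outside G1, had 2639, 2782 and 2601 in WT siGLO, 2841, 2648 and 2554 in WT siPds5b, 2377, 2435 and 2423 in Pds5a-KO siGLO and 1528, 1765 and 2038 in Pds5b-KO siGLO. It had 2237, 2119.8 and 2127 with siPds5b, 2353, 2254 and 2349 with siStag1 and 1932, 2295 and 2274 with siStag2 in Pds5a-KO cells. On average Gmnn was lowest in Pds5b-KO siGLO, where replicate 3 was nearest the other conditions, and fell there by log2 0.59 (SE 0.08, adjusted p 9.06e-06). The direct comparison gave 0.44 for Pds5a-KO over Pds5b-KO (SE 0.08, adjusted p 0.000263), so that Cdt1 was higher and its inhibitor lower in the Pds5b-KO clone under ordinary scaling. With scaling within each chromosome, described below, Cdt1 was not called between the knockouts (-0.11, adjusted p 0.186).

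Of the origin recognition complex, Orc4 had 1205, 1184 and 1192 counts in WT siGLO, 1174, 1147 and 1235 in WT siPds5b, 1149, 1135 and 1161 in Pds5a-KO siGLO and 1094, 1118 and 1159 in Pds5b-KO siGLO, and 1113, 1198 and 1029.6 with siPds5b, 1196, 1130.1 and 1085 with siStag1 and 1015, 1080.0 and 1034 with siStag2 in Pds5a-KO cells. It was not called in any comparison, although both knockouts with siGLO lay just under WT siGLO. Orc5, another ORC subunit, had 2020.2, 1965 and 2049 in WT siGLO, 1976, 1962 and 2288 in WT siPds5b, 2308, 2039.8 and 1861 in Pds5a-KO siGLO, 1552, 1529 and 1696 in Pds5b-KO siGLO, and 2210.0, 2025 and 1594 with siPds5b, 2143, 1899 and 1892 with siStag1 and 1393, 1832 and 1650.4 with siStag2. Its means were lowest in Pds5b-KO siGLO and Pds5a-KO siStag2, and it was called only between the knockouts, at 0.38 (adjusted p 0.0099). Orc6, the smallest ORC subunit, had 2471, 2243 and 2220.3 in WT siGLO, 2348, 2300.5 and 2406 in WT siPds5b, 2013, 2059 and 1872 in Pds5a-KO siGLO, 2309.6, 2413 and 2588 in Pds5b-KO siGLO, and 2012, 2014 and 1759 with siPds5b, 1815, 1731 and 1822 with siStag1 and 1555, 1852 and 1668 with siStag2. Orc6 lay below WT siGLO in all Pds5a-KO libraries and fell by log2 0.26, 0.37 and 0.45 in those given a further siRNA. Orc1, an ATPase subunit of ORC, fell in the same 3 conditions by 0.25, 0.34 and 0.30.

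Within the MCM helicase, Mcm5 separated the clones most under ordinary scaling. It had 13460.0, 13439 and 13675 normalized counts in WT siGLO, 13054, 12871 and 12769 in WT siPds5b, 9527, 9428 and 8956 in Pds5a-KO siGLO and 14654, 13039.5 and 13477 in Pds5b-KO siGLO. With siPds5b, siStag1 and siStag2 in Pds5a-KO cells it had 8447, 7710.1 and 8427, then 9721, 9244 and 8728, then 7984, 8819 and 8659.7. Every Pds5a-KO library lay below every library of the other genotypes. Mcm5 fell by log2 0.54 in Pds5a-KO siGLO (SE 0.06, adjusted p 9.45e-07) and by 0.72, 0.55 and 0.67 with siPds5b, siStag1 and siStag2. In Pds5b-KO siGLO it was at 0.02 (adjusted p 0.827), and the direct comparison of the knockouts gave -0.56 (SE 0.06, adjusted p 4.25e-07). With scaling within each chromosome, described below, the direct comparison gave -0.07 (adjusted p 0.453).

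Mcm4, another ring subunit, had 7069, 7746 and 7856 in WT siGLO, 6383, 6754 and 6985 in WT siPds5b, 6045, 5411 and 5821 in Pds5a-KO siGLO, 6446, 6299 and 6222 in Pds5b-KO siGLO, and 6310.2, 6044 and 5807 with siPds5b, 5432, 5722 and 6132 with siStag1 and 6317, 6047 and 5932 with siStag2 in Pds5a-KO cells. Every other condition lay below WT siGLO without overlap. Mcm4 fell by log2 0.39 in Pds5a-KO siGLO (adjusted p 7.61e-05) and 0.26 in Pds5b-KO siGLO (adjusted p 0.00423). Mcm2, which also carries histones at the fork, had 10770.4, 11418 and 11813 in WT siGLO, 11193, 11658 and 10853 in WT siPds5b, 10754, 10285 and 9890.0 in Pds5a-KO siGLO, 11485, 10816 and 11229.6 in Pds5b-KO siGLO, and 10514, 10079 and 10039 with siPds5b, 10661, 10286 and 10376 with siStag1 and 9840.0, 10692 and 10772 with siStag2. Its values stayed within a narrow range, and it was called in no comparison, with log2 -0.14 in Pds5a-KO siGLO.

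Mcm3 had 11032, 11879.7 and 11609 in WT siGLO, 10315, 11084 and 10802 in WT siPds5b, 10807, 10091 and 9587 in Pds5a-KO siGLO, 10724, 10348 and 10066 in Pds5b-KO siGLO, and 9707, 8975 and 9325 with siPds5b, 8871, 8524 and 8894 with siStag1 and 8988, 9192 and 9514 with siStag2. Mcm6, the neighbor of MCM2 in the ring, had 9934, 9749.6 and 9982 in WT siGLO, 9041, 9649.5 and 9775 in WT siPds5b, 8448, 8425 and 8694 in Pds5a-KO siGLO, 9449, 8344 and 8389 in Pds5b-KO siGLO, and 8386, 7699.7 and 8365 with siPds5b, 8388, 7848 and 8514 with siStag1 and 8344, 8532 and 9019 with siStag2. For both genes all libraries of the knockouts lay under WT siGLO. Mcm3 fell by log2 0.30, 0.39 and 0.32 with siPds5b, siStag1 and siStag2, and Mcm6 by 0.28 and 0.26 with siPds5b and siStag1, and neither was called in a knockout with siGLO, although Mcm6 was as low in Pds5a-KO siGLO (-0.21, adjusted p 0.0124) as in Pds5a-KO siStag2 (-0.20). Mcm7, a ring subunit next to MCM4, had 12719, 13376 and 12419 in WT siGLO, 12418, 13325 and 12448 in WT siPds5b, 12249.8, 12267 and 10985 in Pds5a-KO siGLO, 11145, 9812 and 10326 in Pds5b-KO siGLO, and 12023, 11383 and 11861 with siPds5b, 11479.5, 11719 and 11559.8 with siStag1 and 9951, 11670.0 and 11248 with siStag2. Its mean was lowest in Pds5b-KO siGLO, where it fell by log2 0.30 (adjusted p 0.00188). Mcm8, a paralog outside the ring with a role in recombination, had 1145, 1139 and 1117 in WT siGLO, 1113, 1194 and 1268 in WT siPds5b, 1123, 1163 and 1035 in Pds5a-KO siGLO, 1048, 1112 and 1069 in Pds5b-KO siGLO, and 1048, 1058 and 928 with siPds5b, 1240.2, 1056 and 1155 with siStag1 and 911, 1152 and 1159.9 with siStag2. It was never called.

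Over the condition means of the 7 conditions, the log2 values of Mcm2 to Mcm7 correlated with a median r of 0.81, from 0.22 to 0.97 (15 pairs of genes, n = 7). Over the 21 libraries, as deviations from the means, the median r was 0.48, from -0.29 to 0.72. The corresponding medians were 0.68 and 0.55 over the 15 pairs of ORC genes, 0.77 and 0.41 over the 6 pairs of GINS genes, and 0.67 and 0.30 over all 1176 pairs of members. Single pairs of members ran from -0.91 to 0.99 over condition means and from -0.83 to 0.92 over deviations. Several of the 7 conditions share the Pds5a-KO clone, so their means are not independent, and no value for other pairs of genes is given.

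Helicase activation genes encode GINS, CDC45 and MCM10, which turn the loaded ring into a working helicase. All 6 fell in Pds5a-KO siStag1 and in Pds5a-KO siStag2 against WT siGLO, 3 in Pds5a-KO siPds5b, 3 in Pds5b-KO siGLO and 2 in Pds5a-KO siGLO. Of all genes, 9.37, 13.9, 14.6, 8.57 and 8.12% were called lower in these conditions, in the same order. Gins2 and Gins4 lost their calls with siStag1 and siStag2 under scaling within each chromosome, described below. Gins3 had 533, 523 and 449 normalized counts in WT siGLO, 408, 551 and 412 in WT siPds5b, 314, 292 and 298 in Pds5a-KO siGLO, 445, 469.6 and 437 in Pds5b-KO siGLO, and 279.7, 271 and 267 with siPds5b, 336, 287 and 280.2 with siStag1 and 329, 287 and 271 with siStag2 in Pds5a-KO cells. All 12 Pds5a-KO libraries lay below all 9 others. Under ordinary scaling its fall was the largest of any member in Pds5a-KO siGLO, log2 0.73 (SE 0.11, adjusted p 3.75e-05), and it was 0.88, 0.73 and 0.76 with the siRNAs, whereas Pds5b-KO siGLO was not called (-0.15, adjusted p 0.311). With scaling within each chromosome, described below, Gins3 was at -0.54 in Pds5a-KO siGLO and was called in Pds5b-KO siGLO at -0.45 (adjusted p 0.00434). Gins4, a further GINS subunit, had 2068, 1994 and 2033 in WT siGLO, 2288, 2159 and 2005 in WT siPds5b, 1823, 1918 and 1559 in Pds5a-KO siGLO, 2053, 1972 and 2275 in Pds5b-KO siGLO, and 1753, 1675 and 1671 with siPds5b, 1749.8, 1593 and 1545 with siStag1 and 1334, 1566 and 1565 with siStag2. It lay below WT siGLO in all Pds5a-KO libraries and fell by 0.32 and 0.45 with siStag1 and siStag2.

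Cdc45, the third part of the active helicase, was called in Pds5b-KO but not in Pds5a-KO among the cells given siGLO. Its counts were 1699, 1543 and 1522 in WT siGLO, 1524, 1451 and 1391 in WT siPds5b, 1619, 1540.4 and 1537 in Pds5a-KO siGLO, 1095, 1188 and 1258 in Pds5b-KO siGLO, and 1513, 1469.9 and 1372 with siPds5b, 1300.3, 1221 and 1328 with siStag1 and 1073, 1315 and 1443 with siStag2. Pds5a-KO siGLO overlapped WT siGLO and Pds5b-KO siGLO did not. Cdc45 fell by log2 0.43 in Pds5b-KO siGLO (SE 0.09, adjusted p 0.000576), was at -0.02 in Pds5a-KO siGLO (adjusted p 0.888), and was higher in Pds5a-KO than in Pds5b-KO by 0.41 (adjusted p 0.00091). With siStag1 and siStag2 in Pds5a-KO cells it fell by 0.31 and 0.32 against WT siGLO. Gins1, also of GINS, and Mcm10, an activator of the loaded helicase, fell in Pds5b-KO siGLO by 0.45 and 0.30.

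Mcm5, Gins2, Gins3, Gins4, Orc6 and Cdt1 lie on chromosome 8, a chromosome whose genes differed as a whole between the clones. The median over 636 genes of chromosome 8 with more than 50.0 counts on average in WT siGLO, as a log2 ratio to the WT siGLO mean, was -0.21, -0.18 and -0.22 in the Pds5a-KO siGLO libraries and 0.30, 0.29 and 0.31 in the Pds5b-KO siGLO libraries. For 10934 genes of the other chromosomes these medians were -0.01, -0.01 and -0.02, and -0.05, -0.06 and -0.04. Over the 780 tested genes of chromosome 8 the median log2 fold change was -0.19 in Pds5a-KO siGLO and 0.30 in Pds5b-KO siGLO against WT siGLO, and -0.48 between the knockouts. The 6 members there had medians of -0.35, 0.03 and -0.43. Whether the clones differ in their copies of this chromosome was not tested.

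Scaling was also done within each chromosome, an alternative that takes the scaling factors of each larger chromosome from its own genes. With it, Mcm5 and Gins3 stayed called in Pds5a-KO siGLO at -0.35 and -0.54. Cdt1 and Gins2 were at -0.10 and -0.20 there and were no longer called. In Pds5b-KO siGLO the rise of Cdt1 was gone (0.00, adjusted p 0.966), and Mcm5, at 0.02 with ordinary scaling, was called lower at -0.28 (adjusted p 0.00233), as were Gins2 at -0.58 (adjusted p 8.10e-05) and Gins3 at -0.45 (adjusted p 0.00434), while Orc6 and Gins4, called with neither scaling, turned from 0.08 to -0.22 (adjusted p 0.0231) and from 0.05 to -0.25 (adjusted p 0.0194). In Pds5a-KO cells given a further siRNA, Mcm5 and Gins3 stayed called against WT siGLO, and most calls of the others were lost. Orc6 was at -0.04 (adjusted p 0.696) with siPds5b and -0.17 (adjusted p 0.0773) with siStag1 and stayed called only with siStag2, at -0.26 (adjusted p 0.00615). Gins4 was at -0.12 (adjusted p 0.268) with siStag1 and -0.26 (adjusted p 0.0117) with siStag2, Gins2 at -0.22 (adjusted p 0.0849) and -0.21 (adjusted p 0.0872), and Cdt1 at -0.13 (adjusted p 0.0953) with siPds5b and -0.17 (adjusted p 0.0418) with siStag1, all no longer called. Between the knockouts, Cdt1, Gins3 and Mcm5 were at -0.11, -0.09 and -0.07 and no longer called, Gins2 was called higher in Pds5a-KO at 0.38 (adjusted p 0.00479), Orc6 turned from -0.30 to 0.20 (adjusted p 0.0455), and Gins4, called with neither scaling, from -0.25 to 0.24 (adjusted p 0.0236). The opposite calls of Cdt1 were thus made under ordinary scaling and not with scaling within each chromosome. Among the 43 members elsewhere, a count chosen after seeing the data, 10 fell in Pds5a-KO siGLO, 14 fell and 1 rose in Pds5b-KO siGLO, and 24, 20 and 24 fell in Pds5a-KO cells with siPds5b, siStag1 and siStag2. Over all genes, chromosome 8 included, 8.12% were called lower in Pds5a-KO siGLO, and 8.57% lower and 9.64% higher in Pds5b-KO siGLO. With siPds5b, siStag1 and siStag2 in Pds5a-KO cells, 14.6, 9.37 and 13.9% were called lower.

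**Figure D2:**
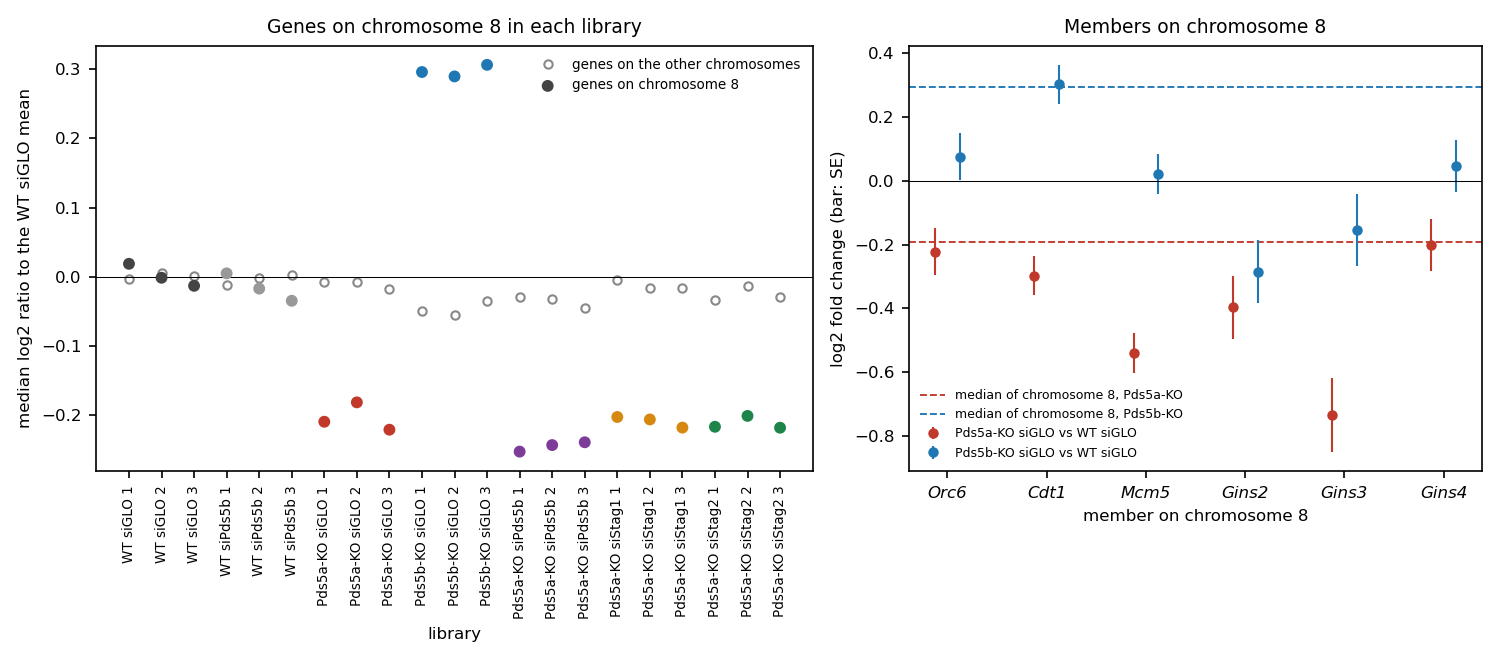
Median log2 ratio of chromosome 8 genes and of other genes to the WT siGLO mean in each library (left), and log2 fold changes of the 6 members on chromosome 8 with the chromosome's median (right).

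The primase subunits were called in more comparisons than most polymerase subunits. Prim2, the large primase subunit, had 1643, 1436 and 1446 normalized counts in WT siGLO, 1434, 1471 and 1403 in WT siPds5b, 1214, 1250.5 and 1165 in Pds5a-KO siGLO, 1061, 984 and 1083 in Pds5b-KO siGLO, and 1118, 1042 and 1024 with siPds5b, 1297, 1042 and 1075 with siStag1 and 1051, 1160.2 and 1187 with siStag2 in Pds5a-KO cells. All knockout libraries lay below WT siGLO, and Prim2 fell by log2 0.32 in Pds5a-KO siGLO (adjusted p 0.00451) and 0.53 in Pds5b-KO siGLO (adjusted p 3.00e-05). Prim1, the catalytic primase subunit, had 1858, 1838 and 1835 in WT siGLO, 1878, 1853 and 1850.5 in WT siPds5b, 1829, 1698 and 1623 in Pds5a-KO siGLO, 1397, 1329 and 1491 in Pds5b-KO siGLO, and 1584, 1499 and 1456 with siPds5b, 1619, 1492 and 1506 with siStag1 and 1330.3, 1523 and 1511 with siStag2. The mean of Prim1 was lowest in Pds5b-KO siGLO, and it fell there by 0.39 (adjusted p 0.000141) and was higher in Pds5a-KO than in Pds5b-KO by 0.29 (adjusted p 0.00256). Pold2, which joins the parts of polymerase delta, had 2576, 2674 and 2661 in WT siGLO, 2571, 2681 and 2290.2 in WT siPds5b, 2513, 2480.3 and 2373 in Pds5a-KO siGLO, 2261, 2275 and 2518 in Pds5b-KO siGLO, and 2023, 1880.4 and 1933 with siPds5b, 2377, 2577 and 2343 with siStag1 and 1941, 2101 and 2119 with siStag2. Its mean was lowest with siPds5b in Pds5a-KO cells, where it fell by 0.44 against WT siGLO. Pola1, the catalytic subunit of polymerase alpha, fell in Pds5a-KO siGLO by 0.36, and Pole2, the second subunit of polymerase epsilon, in Pds5b-KO siGLO by 0.46. Pold1 and Pole, the catalytic subunits of polymerases delta and epsilon, were at -0.07 and 0.02 in Pds5a-KO siGLO and were never called. The accessory subunits Pola2 and Pold3, at 0.21 and -0.10, were not called without a block either.

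Pcna, of the clamp group, had 10595, 10776 and 10927 normalized counts in WT siGLO, 10328, 10242 and 10059.5 in WT siPds5b, 8115, 7802 and 7401 in Pds5a-KO siGLO and 7125, 7359.7 and 8674 in Pds5b-KO siGLO. In Pds5a-KO cells it had 7051, 6554 and 5565 with siPds5b, 7826, 7177 and 6735 with siStag1 and 5631, 7195 and 6698 with siStag2. The 6 WT libraries were the highest, and WT siPds5b did not overlap WT siGLO. Pcna fell by log2 0.47 in Pds5a-KO siGLO (SE 0.09, adjusted p 0.000384), 0.48 in Pds5b-KO siGLO (SE 0.09, adjusted p 0.000317) and 0.75, 0.57 and 0.73 with siPds5b, siStag1 and siStag2 in Pds5a-KO cells. The knockouts did not differ from each other in Pcna (0.01, adjusted p 0.946).

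The clamp loader was mixed. Rfc5 had 3037, 2877 and 2961 in WT siGLO, 3339.8, 2815 and 3075 in WT siPds5b, 3822, 3293 and 3179 in Pds5a-KO siGLO, 3935, 3728 and 3399 in Pds5b-KO siGLO, and 3519.6, 3076 and 3123 with siPds5b, 3792, 3436 and 3416 with siStag1 and 3555, 3280.1 and 3209.8 with siStag2. Its knockout libraries all lay above WT siGLO, and it rose by log2 0.32 in Pds5b-KO siGLO (adjusted p 0.00452). Rfc3, another loader subunit, had 1222, 1212 and 1274 in WT siGLO, 1179, 1202 and 1291 in WT siPds5b, 1153, 1109 and 965 in Pds5a-KO siGLO, 990.1, 1048 and 1097 in Pds5b-KO siGLO, and 1127, 1056 and 877 with siPds5b, 1084, 1052 and 1009 with siStag1 and 951, 1129 and 978 with siStag2. All its knockout libraries lay below WT siGLO, yet no comparison was called without a block. Rfc1, the large loader subunit, fell by 0.26 in Pds5a-KO siGLO. Rpa3, the smallest subunit of RPA, had 909, 978 and 999 in WT siGLO, 998, 1030.2 and 979 in WT siPds5b, 664, 815 and 788 in Pds5a-KO siGLO, 516, 709.9 and 772 in Pds5b-KO siGLO, and 682, 668 and 608 with siPds5b, 676, 693 and 719 with siStag1 and 596, 737 and 674 with siStag2. Rpa3 was below WT siGLO in every knockout library and fell by 0.53 in Pds5b-KO siGLO (adjusted p 0.000827), with -0.35 in Pds5a-KO siGLO (adjusted p 0.0193).

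At the fork, Tipin, which with Timeless steadies the replisome, had 4278, 3838 and 3988 normalized counts in WT siGLO, 4474, 4061 and 4298 in WT siPds5b, 4031, 3533 and 3054 in Pds5a-KO siGLO, 3741, 3521 and 3790.4 in Pds5b-KO siGLO, and 3246, 2953 and 2489.7 with siPds5b, 4035, 3407 and 3296 with siStag1 and 2893, 3206 and 3076 with siStag2. It fell by log2 0.48 and 0.40 with siPds5b and siStag2, and overlapped WT siGLO in Pds5a-KO siGLO. Wdhd1, which links polymerase alpha to the helicase, had 3008, 2659.6 and 2805 in WT siGLO, 2712, 2784 and 2961 in WT siPds5b, 2422, 2077 and 2181 in Pds5a-KO siGLO, 2675, 2419 and 2389.8 in Pds5b-KO siGLO, and 2244, 1962 and 2168 with siPds5b, 2489, 2289 and 2298 with siStag1 and 2023, 2139 and 2149 with siStag2. Wdhd1 fell by 0.34 in Pds5a-KO siGLO (adjusted p 0.000965), and it also fell in Pds5a-KO cells given siPds5b, siStag1 or siStag2. Lig1, the ligase that seals Okazaki fragments, fell by 0.32 in Pds5a-KO siGLO, while Fen1, the nuclease that trims their flaps, and Timeless were never called without a block. None of these 5 fork genes was called in Pds5b-KO siGLO.

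Nucleotide supply held the gene with the largest change. Rrm2 had 8019.8, 7995 and 7826 normalized counts in WT siGLO, 6666, 6860.1 and 7055 in WT siPds5b, 5266, 4665 and 5043 in Pds5a-KO siGLO and 6186, 6021 and 6141 in Pds5b-KO siGLO. In Pds5a-KO cells it had 3456, 3076 and 2877 with siPds5b, 5101, 4849 and 5119 with siStag1 and 5519, 4788 and 4799.9 with siStag2. Every condition lay under WT siGLO without overlap, and Pds5a-KO siPds5b lay under all others. Rrm2 fell by log2 0.67 in Pds5a-KO siGLO (SE 0.07, adjusted p 1.78e-07), 0.38 in Pds5b-KO siGLO (SE 0.07, adjusted p 0.000249) and 1.34 in Pds5a-KO siPds5b (SE 0.07, adjusted p 7.63e-13), the last a change of -60.5%. With siStag1 and siStag2 it fell by 0.66 and 0.66. Rrm1, the large reductase subunit, fell less, by 0.31, 0.32 and 0.29 with siPds5b, siStag1 and siStag2, and was not called in either knockout with siGLO.

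Tk1, the thymidine salvage kinase, had 1914, 1921 and 1823 in WT siGLO, 2091, 1972 and 1932 in WT siPds5b, 1888, 1645 and 1525 in Pds5a-KO siGLO, 1421, 1504 and 1625 in Pds5b-KO siGLO, and 1398, 1077 and 1179 with siPds5b, 1705, 1565 and 1581 with siStag1 and 1341, 1559 and 1363 with siStag2. Its mean was lowest in Pds5a-KO siPds5b, and it overlapped WT siGLO in Pds5a-KO siGLO. Tk1 fell by log2 0.31 in Pds5b-KO siGLO (adjusted p 0.00995) and 0.63 in Pds5a-KO siPds5b against WT siGLO (adjusted p 5.01e-06). Tyms, which makes thymidylate anew, fell by 0.39 and 0.41 in the knockouts with siGLO.

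**Figure D3:**
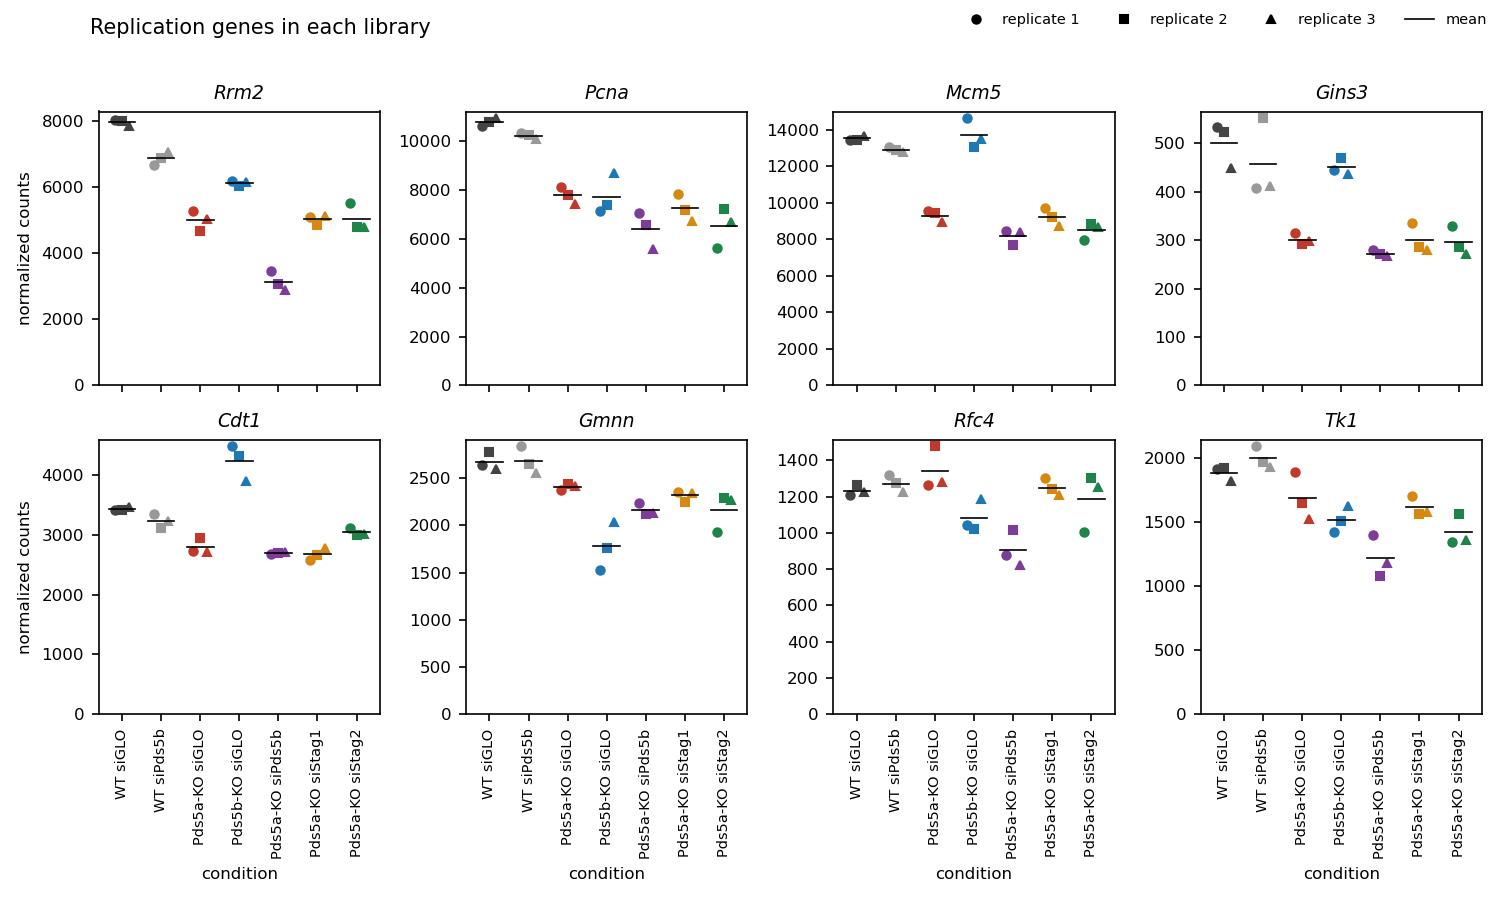
Normalized counts of 8 members in each of the 21 libraries. Symbols mark the replicate number and lines the mean of a condition.

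Within Pds5a-KO cells, siPds5b lowered 4 members against siGLO and raised none, beside 7.59% of all genes called, 3.59% lower and the rest higher. Rrm2 fell by log2 0.67 (SE 0.07, adjusted p 5.22e-07), Rfc4, a clamp loader subunit, by 0.57 (SE 0.09, adjusted p 0.000173), Tk1 by 0.47 (adjusted p 0.000832) and Pold2 by 0.34 (adjusted p 0.0013). Without replicate 2 of Pds5a-KO siPds5b the count was 2, and it was also 2 when only the libraries compared were fitted. With the replicate number as a block, Cdc6 and Mcm10 were called too, at -0.27 (adjusted p 0.00897) and -0.28 (adjusted p 0.00516). Against the same control, siStag1 called no member (0.0936% of all genes called, 0.0802% lower and 0.0134% higher), with 5 at an unadjusted p under 0.05 and 0 by DESeq2. With siStag2 edgeR called no member either (2.24% of all genes called, 1.27% lower and 0.969% higher), 17 had an unadjusted p under 0.05 and DESeq2 called 1, Pold2 at -0.26. The shares of all genes at an unadjusted p under 0.05 are not given, so the counts of 5 and 17 have no background beside them. All libraries lay below those of Pds5a-KO siGLO for 21, 9 and 14 members with siPds5b, siStag1 and siStag2, beside 15.4, 7.55 and 12.5% of all genes, and above for 1, 0 and 1, beside 15.9, 8.13 and 13.9%. Medians of the members were -0.09, -0.06 and -0.12 for siPds5b, siStag1 and siStag2 (-0.00, -0.01 and 0.01 over all genes), and these comparisons share the Pds5a-KO siGLO libraries.

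Rfc4 had 1208, 1262 and 1226 normalized counts in WT siGLO, 1317, 1275 and 1224 in WT siPds5b, 1263, 1479.6 and 1282 in Pds5a-KO siGLO and 1044, 1019 and 1186 in Pds5b-KO siGLO. In Pds5a-KO cells it had 876, 1017 and 821 with siPds5b, 1300.3, 1241 and 1207 with siStag1 and 1003, 1301 and 1252 with siStag2. Pds5a-KO siGLO lay just above WT siGLO and Pds5a-KO siPds5b well below, with replicate 1 of Pds5a-KO siStag2 the only other low library of that clone. The effect of siPds5b differed between genotypes for 2 members, beside 1.48% of all genes called for this interaction, 0.896% lower and 0.588% higher: Rfc4, with -0.62 (SE 0.13, adjusted p 0.00789), and Rrm2, with -0.46 (SE 0.10, adjusted p 0.00797). In WT cells siPds5b left Rfc4 at 0.05 and Rrm2 at -0.21, neither called, while Tk1 missed the threshold for the interaction at -0.55 (adjusted p 0.0126) and was called with the replicate number as a block (-0.55, adjusted p 0.00549). Neither call of the fit without a block was firm: the count of 2 was 0 without any single library of WT siGLO or WT siPds5b or without replicate 3 of Pds5a-KO siPds5b, and 1 without replicate 1 or 2 of Pds5a-KO siGLO or replicate 2 of Pds5a-KO siPds5b. Scaling by library size alone also gave 0, as did a fit of only these conditions, and RLE scaling and the stricter count filter each gave 1.

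Compared directly, Pds5a-KO siGLO and Pds5b-KO siGLO differed in 9 members, 4 higher and 5 lower in Pds5a-KO, beside 19.2% of all genes called, 9.74% higher and 9.46% lower. Gmnn, Cdc45, Orc5 and Prim1 were the higher ones, and Cdt1, Gins3, Mcm5, Orc6 and Rrm2 the lower ones. Gins3 was lower by 0.58 (adjusted p 0.000518), Orc6 by 0.30 (adjusted p 0.00333) and Rrm2 by 0.29 (adjusted p 0.00258), and of the 5 lower genes only Rrm2 lies off chromosome 8. Scaling within each chromosome gave 4 calls, 3 higher and 1 lower, of which Gmnn, Cdc45 and Rrm2 were shared with these 9 and Gins2 was new, and a fit of only these conditions gave 5. The libraries did not overlap for 9 members lower and 9 higher in Pds5a-KO, beside 19.7 and 21.4% of all genes. The members' median was -0.02 and that of all genes 0.02.

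Some members share exon bases with a neighbor on the opposite strand, and since the strand of counting is not known, reads of the neighbor may enter or leave their counts. Gins2, a GINS subunit, shares 67.3% of its exon bases with Gse1, which rose in Pds5b-KO siGLO by 0.76. Rfc4 shares 12.7% with Eif4a2, a translation factor gene with a mean of 15819 reads per library, which was at -0.29 (adjusted p 0.0218) in Pds5a-KO siPds5b against Pds5a-KO siGLO. Rfc5 shares 10.7% with Wsb2, which rose in Pds5b-KO siGLO by 0.43, in the same direction as Rfc5. Orc2, the core ORC subunit, shares 29.8% with Nif3l1, Rfc2, a clamp loader subunit, 15.1% with Lat2, which had a mean of 15.0 reads, and Orc6 6.93% with Vps35, which was lower by 0.52 between the knockouts. Fen1 shares 78.8% with Gm10143, an antisense transcript without a count in the files. Values for these genes are therefore uncertain. The pseudogene Tyms-ps had at most 4 reads in a library.

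Related genes outside the group were counted beside the shares of all genes called lower and higher against WT siGLO, 8.12 and 9.63% in Pds5a-KO siGLO, 8.57 and 9.64% in Pds5b-KO siGLO, and 14.6 and 17.4% in Pds5a-KO siPds5b. Of 26 other initiation and fork factors, 2 fell and 1 rose in Pds5a-KO siGLO, no more than these shares, 4 fell and 2 rose in Pds5b-KO siGLO, and 8 fell and 2 rose in Pds5a-KO siPds5b, where Dtl, which targets CDT1 for degradation, fell by log2 0.82, Dna2, a flap nuclease, by 0.68 and Rnaseh2a, the catalytic subunit of ribonuclease H2, by 0.63. Among 20 other nucleotide supply genes, 3 fell in Pds5a-KO siGLO, led by Rrm2b, the p53-induced reductase subunit, at -0.64, and 8 fell in Pds5a-KO siPds5b, led by Shmt1, a folate cycle enzyme, at -0.68. Rises in this list, and its counts in Pds5b-KO siGLO, are not given here. Of 10 genes of chromatin assembly behind the fork, 1 fell in Pds5a-KO siGLO, Uhrf1, which recruits DNMT1, at -0.27, 2 fell in Pds5b-KO siGLO and 3 in Pds5a-KO siPds5b, and none rose. In the E2F and RB family of 15 genes, 4 fell and 1 rose in Pds5a-KO siGLO, 1 fell and 2 rose in Pds5b-KO siGLO, and 5 fell and 2 rose in Pds5a-KO siPds5b. E2f2, an activator E2F, fell by 0.90 in Pds5a-KO siGLO, 0.58 in Pds5b-KO siGLO and 1.58 in Pds5a-KO siPds5b, and Tfdp1, the partner of E2F proteins, by 0.43 in Pds5a-KO siGLO and 0.73 in Pds5a-KO siPds5b. Rbl1, an RB relative that restrains E2F, fell as well, by 0.54 and 0.75 in these conditions.

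Of 18 transcripts of G2 and M phase, beside the same shares of all genes, 1 rose and none fell in Pds5a-KO siGLO, 2 rose and 3 fell in Pds5b-KO siGLO, and 3 rose and 3 fell in Pds5a-KO siPds5b. Their median log2 fold changes were 0.06, -0.02 and 0.03, and 0.08 and 0.10 with siStag1 and siStag2. Whether they differ from the members in this was not tested. Cdc20, an activator of anaphase, rose in Pds5a-KO siGLO by 0.34 and in Pds5b-KO siGLO by 0.31.

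Markers of cell identity changed as well. Of all genes, 8.12% were called lower and 9.63% higher in Pds5a-KO siGLO, and 8.57 and 9.64% in Pds5b-KO siGLO. In Pds5a-KO cells these shares were 14.6 and 17.4% with siPds5b, 9.37 and 10.6% with siStag1, and 13.9 and 16.2% with siStag2. Of the 10 embryonic stem cell markers, 5 fell in Pds5a-KO siGLO, 6 fell and 1 rose in Pds5b-KO siGLO, and 7, 5 and 9 fell with siPds5b, siStag1 and siStag2 in Pds5a-KO cells. Their sums were 132539, 125841 and 117489 in Pds5a-KO siGLO, where Dppa5a was most abundant, and 110641, 117903 and 126269 in Pds5b-KO siGLO. They were 160568, 153302 and 143888 in WT siPds5b, and 111377, 104492 and 99889 with siPds5b, 118730.1, 111913 and 113707 with siStag1 and 87535, 103198 and 99979.6 with siStag2, with Tdgf1 most abundant in all of these. Klf4 and Esrrb, factors of naive pluripotency, fell most in Pds5a-KO siPds5b, at log2 -2.45 and -2.27. Of 5 trophoblast markers, 4 were tested, and 4 rose in Pds5a-KO siGLO and 2 in Pds5b-KO siGLO. They summed to 2932, 2798 and 2950.5 in WT siGLO, 3057, 2861 and 2798 in WT siPds5b, 11493, 33085 and 32040.0 in Pds5a-KO siGLO and 4877, 8603 and 9125 in Pds5b-KO siGLO. With siPds5b, siStag1 and siStag2 in Pds5a-KO cells, 4, 3 and 4 rose and the sums were 12233, 31872 and 32630.1, then 8447, 20645 and 21659, then 22215, 26101 and 26775. Krt8, a keratin of simple epithelia, was the most abundant in every condition and no marker was at 0 throughout a condition. Replicate 1 had the lowest sum in each knockout condition. Their part in the result was not tested.

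Markers of other lineages were read as well, beside the same shares of all genes. The 8 fibroblast markers summed to 1169, 1224 and 1622 in WT siGLO, 413, 1096 and 1632 in Pds5a-KO siGLO and 417, 469.6 and 544 in Pds5b-KO siGLO, with Col1a1 most abundant, and of 6 tested 2 fell in Pds5b-KO siGLO and none was called in Pds5a-KO siGLO, while 1, 2 and 1 fell with siPds5b, siStag1 and siStag2 in Pds5a-KO cells. Of 6 primitive endoderm markers none was called against WT siGLO, and of 4 mesendoderm markers Eomes alone fell, in every knockout condition. Among 4 neuroectoderm markers, 2 fell in Pds5a-KO siGLO and 2 rose in Pds5b-KO siGLO, and in Pds5a-KO cells 1 rose and 2 fell with siPds5b, 1 rose and 1 fell with siStag1, and 2 rose and 1 fell with siStag2. Nes, which encodes nestin, was the most abundant of these in every condition, with a mean of 2074 in WT siGLO. Whether these lineage genes bear on the replication genes was not tested either.

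Promoters were read because E2F is the best known regulator of the group. The RefSeq windows of GRCm38.p6, which span 300.0 bases around each start, covered 40 members. Letters of an E2F element (TTTCCCGC, TTTGGCGC, TTTCGCGC or TTTGCCGC, on either strand) were found in 16 of the 40 members, that is 40.0%, beside 4.54% of 10917 tested genes and 2.60% of 27025 genes in the table. CCAAT, on either strand, was in 24 members, 60.0% beside 42.8 and 41.1%, and 9 members held both. Windows of Pcna, Rrm2 and Tyms held none of the E2F letters. The windows of Mcm5 (chr8:75109259-75109558, plus strand), Gins3 (chr8:95633309-95633608, plus strand) and Cdt1 (chr8:122567765-122568064, plus strand) are shown as the 3 chromosome 8 members with the largest differences between the clones under ordinary scaling, with the E2F letters in capitals; a match is a description and no proof of binding.
Mcm5: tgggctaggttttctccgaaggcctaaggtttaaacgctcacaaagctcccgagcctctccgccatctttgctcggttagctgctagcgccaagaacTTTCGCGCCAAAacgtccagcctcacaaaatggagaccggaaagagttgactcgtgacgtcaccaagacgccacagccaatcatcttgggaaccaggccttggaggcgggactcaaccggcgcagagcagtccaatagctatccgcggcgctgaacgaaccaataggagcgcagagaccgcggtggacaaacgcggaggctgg
Gins3: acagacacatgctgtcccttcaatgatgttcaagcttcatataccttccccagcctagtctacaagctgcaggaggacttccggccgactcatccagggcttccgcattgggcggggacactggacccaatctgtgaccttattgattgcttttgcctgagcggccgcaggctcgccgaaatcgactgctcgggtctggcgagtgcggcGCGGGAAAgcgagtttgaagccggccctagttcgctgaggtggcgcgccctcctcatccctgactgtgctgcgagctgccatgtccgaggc
Cdt1: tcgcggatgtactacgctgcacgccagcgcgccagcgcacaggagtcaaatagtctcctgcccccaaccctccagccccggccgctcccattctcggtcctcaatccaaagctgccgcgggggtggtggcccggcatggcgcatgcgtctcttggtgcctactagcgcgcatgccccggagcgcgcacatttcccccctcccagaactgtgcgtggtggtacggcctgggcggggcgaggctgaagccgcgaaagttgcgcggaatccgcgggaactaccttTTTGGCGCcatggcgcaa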

How the data were processed

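Per the labels, RNA-seq of 21 libraries was deposited by the authors as counts of reads per gene, aligned to mm10 with STAR. The counting tool, gene annotation and strand are not given in the sources used here. Genes were filtered by filterByExpr, scaled by TMM and tested with the quasi-likelihood F test of edgeR 4.0.16 in R 4.3.3, with a mean for each of the 7 conditions. The p-values were adjusted by Benjamini-Hochberg over 14963 genes, with a threshold of 0.01, and the standard error is the log2 fold change over the root of F. The 11 comparisons were 6 against WT siGLO, 3 against Pds5a-KO siGLO, the knockouts against each other, and the difference of the siPds5b effect between Pds5a-KO and WT. Gene positions and lengths came from GENCODE vM21, which held 98.7% of the symbols. Sequences came from RefSeq. Tables and figures were made with Python 3.11.15, numpy 2.4.6, pandas 2.3.3 and matplotlib 3.10.9.

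The alternatives were DESeq2 1.42.0, an adjusted p under 0.05, RLE scaling, library size alone, TMM within each chromosome, no filter, at least 10 counts in every library, replicate number as a blocking factor, separate fits of the conditions in a comparison, and leaving out each library. The members outside chromosome 8 were counted after seeing the data. The scripts were tested on simulated data with known effects.

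The labels number the replicates but do not say that equal numbers were handled together. Deviations from condition means were correlated over 12029 genes for libraries of the same number, and all 3 correlations were above 0.1 only in WT siPds5b against WT siGLO (0.52, 0.40 and 0.34) and in the comparisons with Pds5a-KO siGLO of siPds5b (0.69, 0.34 and 0.55), siStag1 (0.62, 0.18 and 0.53) and siStag2 (0.13, 0.24 and 0.24). The pairing is thus read from the data and the shared numbers.

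Values in every library are given for the 4 members with the largest rise and fall among those called in each comparison, for Mcm2 to Mcm7, Cdc6, Cdt1, Gmnn and Pcna, and for the members with the highest and lowest level per kilobase in each role. Outside the members, genes named come from the 3 called with the largest change per list and comparison. The lists were markers of embryonic stem cells, fibroblasts, primitive endoderm, mesendoderm, neuroectoderm and trophoblast, other initiation and fork factors, other nucleotide supply genes, chromatin assembly, the E2F and RB family, and G2 and M phase transcripts. The members and lists were chosen with earlier results of these data known.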

Additional observations from a re-analysis of the deposited data

Results flagged for a closer look

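The effect of siPds5b differed between Pds5a-KO and WT cells for Rfc4, with a difference in log2 fold change of -0.62, and for Rrm2, with -0.46. They are listed here because the interaction of genotype and siRNA was called for them, at adjusted p 0.00789 and 0.00797, while siPds5b alone was called in WT cells for neither. Neither call was firm, since leaving out a library in turn gave 0 to 2 called members. Rfc4 also shares exon bases with Eif4a2.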

How the results depend on the processing

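Of the 11 counts of called members, 5 stayed within 1.5 times under every change of processing: Pds5b-KO siGLO, WT siPds5b, Pds5a-KO siPds5b and Pds5a-KO siStag2 against WT siGLO, and siStag1 against siGLO in Pds5a-KO cells. Shares of all genes called are given only for the edgeR fit without a block, at an adjusted p under 0.01. Counts of members under the changed settings therefore have no background beside them. For siPds5b against siGLO in Pds5a-KO cells the count of 4 was 2 with only the conditions compared and 10 at an adjusted p under 0.05. For siStag2 against siGLO in Pds5a-KO cells the count of 0 was 1 with DESeq2 and 6 at an adjusted p under 0.05. Between the knockouts 9 was 4 with TMM within each chromosome, 5 with only the conditions compared, 15 at an adjusted p under 0.05, and 5 among members outside chromosome 8, a choice made after seeing the data. The interaction count of 2 was 1 with RLE scaling and with at least 10 counts in every library, and 0 with library size alone and with only the conditions compared. Leaving out a library in turn gave 8 to 13 in Pds5a-KO siGLO, 11 to 15 in Pds5b-KO siGLO, 0 in WT siPds5b, and 25 to 30, 15 to 24 and 20 to 33 in Pds5a-KO siPds5b, siStag1 and siStag2 against WT siGLO. It gave 2 to 5, 0 and 0 for siPds5b, siStag1 and siStag2 against Pds5a-KO siGLO, 6 to 9 between the knockouts and 0 to 2 for the interaction. TMM within each chromosome turned the direction of Mcm5 in Pds5b-KO siGLO (-0.28) and of Gins2 (0.38) and Orc6 (0.20) between the knockouts, as well as, called with neither scaling, that of Gins4 there (-0.25 to 0.24), of Orc6 (0.08 to -0.22) and Gins4 (0.05 to -0.25) in Pds5b-KO siGLO, and of Cdt1 in Pds5a-KO siStag2 against WT siGLO (-0.17 to 0.02). With the replicate block, the counts against WT siGLO were 18 in Pds5a-KO siGLO, 16 in Pds5b-KO siGLO, 0 in WT siPds5b, and 30, 27 and 31 with siPds5b, siStag1 and siStag2, those against Pds5a-KO siGLO were 6, 0 and 0, that between the knockouts 9 and that of the interaction 3. In the paired comparisons and the interaction built from them it changed no call but those of Cdc6, Mcm10 and Tk1. In the others, where libraries share only a number, all calls it changed were gains except that of Orc5 between the knockouts, lost at adjusted p 0.0107 while Rfc4 was gained. Gains were falls except for Rfc5 in Pds5a-KO siGLO (0.21) and siStag1 (0.26), Pola2 in Pds5a-KO siGLO (0.21), and Rfc4 between the knockouts (0.31). Over single members, 214 results were weaker, 124 stronger, 3 reversed and 8038 the same. Each knockout is a single clone, and 3 libraries per condition bound what could be called. Cell cycle phase was not measured in these libraries, though the paper reports it by flow cytometry for some conditions, Pds5a-KO siPds5b among them.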
